A study of Mus musculus with 16 samples.

Results

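The comparison described here sets VEC-positive against VEC-null mouse endothelial cells that were both grown sparse, at low cell density. It uses 8 of the 16 arrays of the series, chosen by their labels: 2 copies per line of chip A (MG_U74Av2) and 2 copies per line of chip B (MG_U74Bv2). VEC is VE-cadherin, encoded by Cdh5. The labels give all groups the same origin, endothelial cells derived from mouse embryonic stem cells in which both copies of Cdh5 were null, and call the groups VE-cadherin negative (VEC-null) or VE-cadherin positive (VEC-positive). The sources used here do not give how the positive cells came to carry VE-cadherin or how many clones each line holds. All cells, controls included, were starved for 36 h in MCDB 131 medium containing 1% BSA (bovine serum albumin) before lysis. Each condition was 1 cRNA sample, made from 15 µg of total RNA and hybridised to 2 copies of each chip, so the copies are technical and every p value below measures only the spread between hybridisations of the same cRNA. The other 8 arrays hold the same lines when confluent and are used for the spread and for comparison.

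VE-cadherin is the cadherin of endothelial adherens junctions, where it binds VE-cadherin of the neighbouring cell and, inside the cell, beta-catenin, plakoglobin and p120-catenin. It is known for contact-dependent restraint of growth and for organising other junctions. Sparse cells have fewer neighbours to bind, but contacts and junctions were not measured in the data used here. The comparison thus describes cells that differ in the VE-cadherin label at low density. The study's title asks about genes raised by expression and clustering of VE-cadherin at junctions, for which the sparse pair is the low-density side.

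Values are MAS5 signals, linear probe set intensities scaled to a target of 500 per array, and are given for both copies. The deposited tables hold no detection calls, so a low signal is given as a level and not as absence. Differences are log2 changes, VEC-positive minus VEC-null, of the signal plus an offset of 50, which shrinks changes of dim genes, and carry the standard error (SE) of the limma fit. A probe set passed with a Benjamini-Hochberg adjusted p below 0.05 and a log2 change of at least 1 in size. Copies of the 4 sparse chip groups correlated with r between 0.951 and 0.989, with the lowest value for VEC-positive cells on chip B. For the Gapdh control probe sets the ratio of 3' to 5' signal, a sign of RNA integrity, was 0.91 to 0.987 in VEC-null and 0.903 to 1 in VEC-positive sparse arrays, and that of actin was 1.17 to 1.24 and 1.11 to 1.31. These ranges overlap.

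The cells of both lines expressed endothelial genes. Cdh5 itself had signals of 1255 and 1282 on the VEC-null copies and of 1464 and 1334 on the VEC-positive copies, a small difference of log2 0.13 (SE 0.09, limma adjusted p 0.26). The deleted part of Cdh5 is not named in the sources used here, and the probe set therefore cannot serve as a test of the labels. Cd34, a sialomucin of endothelial and progenitor cells, lay between 2443 and 2497 in VEC-null and between 3342 and 3708 in VEC-positive cells, and the endothelial TGF-beta co-receptor Eng lay at 4734 or above on all sparse copies. Pecam1, another defining endothelial gene, was dim, at 150 and 212 against 133 and 104. Epcam, an epithelial surface protein, was at 6 and 6.5 against 5.7 and 19.6, and Ptprc, the leukocyte antigen CD45, was at 9.1 on both VEC-null copies and at 17 and 11.1 on the VEC-positive copies.

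Of 9224 genes tested, each by 1 representative probe set, 544 (5.9%) were higher and 403 (4.37%) were lower in sparse VEC-positive than in sparse VEC-null cells, 947 (10.3%) together. The median change of all genes tested was -0.03. Over all 14301 probe sets tested, 777 (5.43%) were higher and 611 (4.27%) lower, 1388 (9.71%) together. Most called changes were small: 474 of the higher genes lay between log2 1 and 2, 50 between 2 and 3, and 20 at 3 or above, and the lower genes divided into 367, 25 and 11. Of the 947 genes, 270 had another tested probe set, which was called the same way throughout for 99 and the opposite way for 2. The plot of change against level shows that calls were made over most of the range of signals.

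**Figure D1:**
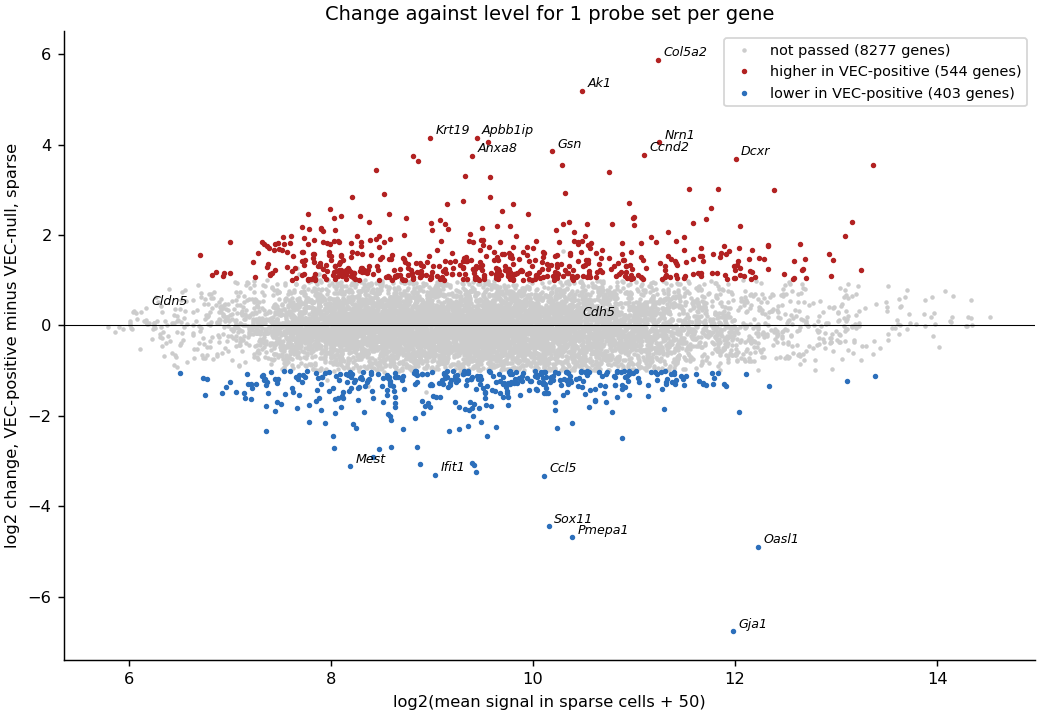
Log2 change between sparse VEC-positive and sparse VEC-null cells (vertical axis) against log2 of the mean sparse signal plus 50 (horizontal axis), 1 point per gene, for 9224 genes. Red points are the 544 genes called higher and blue points the 403 called lower, with Col5a2 at 5.88 and Gja1 at -6.76 as the extremes and Cdh5 near 0.

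The largest rise was that of Col5a2, a chain of the fibrillar collagen V. Its signals were 26.1 and 36.2 on the VEC-null copies and 4513 and 4902 on the VEC-positive copies (log2 5.88, SE 0.19, limma adjusted p 1.6e-07). Ak1, the cytosolic adenylate kinase that balances ATP, ADP and AMP, rose from 35.1 and 19.2 to 2613 and 2881 (log2 5.19). Both genes went from dim to bright. Copies that do not overlap between the lines were a condition for the 12 rises and 12 falls described here, so their separation is not a result. For other genes below, separation of the copies describes the signals only. The share of all genes tested whose copies separate is not given here, so it is no result beyond the call. Krt19, a type I keratin of epithelia and mesothelium, stood at 3.3 and 4.5 against 861.8 and 947.6 (log2 4.15, SE 0.19, limma adjusted p 5.8e-07). Apbb1ip, the Rap1 effector RIAM, stood at 20.3 and 28.5 against 1248 and 1285 (log2 4.15). These genes too were dim in VEC-null cells.

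Among the other leading rises, Ddit4l, an inhibitor of mTOR signalling, was at 33.9 and 34.8 against 1259 and 1469 (log2 4.06), and Nrn1, the neurite growth factor neuritin, at 189 and 269 against 4434 and 4639 (log2 4.05). Gsn, the actin-severing protein gelsolin, rose from 79.0 and 125.5 to 2064 and 2194 (log2 3.86). The cyclin gene Ccnd2 rose from 262 and 233 to 3599 and 4488 (log2 3.77). Of these 4 genes, Ddit4l was dim on both VEC-null copies, while Nrn1 and Ccnd2 had signals of 189 or more on every copy. Dcxr, a carbonyl reductase for sugars and dicarbonyls, went from 569 and 520 to 7689 and 7462 (log2 3.68), and Gatm, the first enzyme of creatine synthesis, from 17.8 and 19.8 to 878 and 741 (log2 3.64). Anxa8 and Stfa3 complete the 12 largest rises and are described with their families. The SE of the 12 genes lay between 0.14 and 0.36, with limma adjusted p values of 4.8e-05 or less.

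Gja1, which encodes the gap junction protein connexin 43, showed the largest fall. Its signals were 8007 and 7903 on the VEC-null copies and 25.3 and 22.1 on the VEC-positive copies (log2 -6.76, SE 0.16, limma adjusted p 2.4e-08). A further probe set of Gja1 gave -4.72, and the mean over both was -5.74. Sox11, an embryonic transcription factor, fell from 2040 and 2223 to 48.6 and 52.2 (log2 -4.44), and its further probe sets gave -3.40 and -1.52. In both genes the direction was shared by all their probe sets and the size was not. Pmepa1, a feedback inhibitor of TGF-beta signalling, fell from 3056 and 2002 to 30.0 and 70.1 (log2 -4.69), but its other tested probe set gave 0.17, so the gene has no common direction over its probe sets.

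Slc6a15, a transporter of branched-chain amino acids and proline, fell from 1234 and 1177 to 83.9 and 79.4 (log2 -3.25). Wtip, a LIM protein of the Ajuba family found at junctions, fell from 1219 and 1116 to 133.1 and 61.6 (log2 -3.09). Bhlhb9, an X-linked gene, fell from 528 and 570 to 61.6 and 7.4 (log2 -2.90), with 2 VEC-positive copies far apart but both below the VEC-null copies. The remaining leading falls, Oasl1, Ccl5, Ifit1, Mest, Rsad2 and Cxcl10, belong to the interferon, chemokine and imprinted groups. The 12 falls had SE values between 0.12 and 0.36 and limma adjusted p values of 0.00021 or less.

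**Figure D2:**
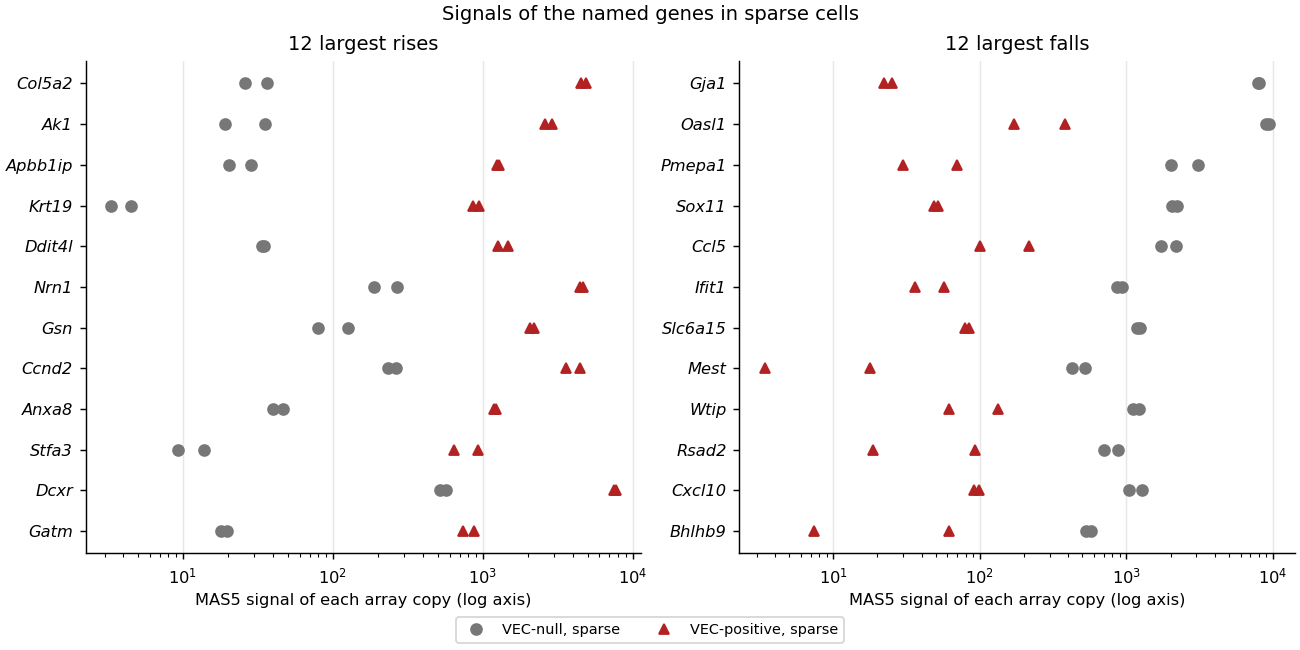
MAS5 signal on a log axis of each sparse array copy for the 12 genes with the largest rise (left) and the 12 with the largest fall (right), grey circles for VEC-null and red triangles for VEC-positive cells. Genes were chosen with copies that do not overlap between the lines, and the plot shows the signal levels they span, from 26.1 and 36.2 against 4513 and 4902 for Col5a2 to 8007 and 7903 against 25.3 and 22.1 for Gja1.

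The gene lists below were chosen with earlier results of these data known, so their shares are descriptions and no test. Matrix protein genes moved in single members. Among 9 tested collagens other than those of basement membranes, 2 were higher (22.2%, against 5.9% of all genes), 0 lower and 7 did not pass, with a list median of -0.14. Besides Col5a2, the partner chain Col5a1 rose from 573 and 668 to 1590 and 1508 (log2 1.26, SE 0.12, limma adjusted p 4e-05), and a further probe set gave 1.11. Col5a3 was at 0.50 and did not pass, nor did the collagen I chain Col1a2 (-0.15) or the collagen VI chains Col6a1, Col6a2 and Col6a3 (-0.29, -0.22 and -0.14). A further 7 collagens were too dim to be tested.

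Of 16 tested basement membrane genes, 4 were higher, 1 was lower and 11 did not pass (31.2% called, against 10.3% of all genes). With chromosome medians subtracted 2 were higher. Col4a1 and Col4a2, which form the common collagen IV network, rose from 5928 and 5597 to 13053 and 13978 (log2 1.22) and from 3533 and 4200 to 11450 and 11815 (log2 1.58). Both lie on chromosome 8, whose 520 tested genes had a median change of 0.23. With that median subtracted Col4a1 came to 0.99, below the threshold. Nid1, the nidogen that links laminin and collagen IV, rose from 257 and 187 to 564 and 767 (log2 1.39). The laminin chain Lamb2 was called at 1.02 and lost the call with its chromosome median subtracted, while a further probe set of it gave -0.19. Col4a5, the X-linked collagen IV chain, fell from 162 and 151 to 31.8 and 36.4 (log2 -1.30). The laminin chains Lamc1 (-0.12), Lamb1 (-0.33) and Lama5 (0.87) did not pass.

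Among 19 matricellular proteins and proteoglycans, 3 were higher and 1 was lower (21.1% called, against 10.3% of all genes). Tnc, the adhesion-modulating protein tenascin C, rose from 876 and 915 to 3766 and 3427 (log2 1.95), and a further probe set gave 1.02. Fbln2, a fibulin of elastic fibres and basement membranes, rose from 165 and 162 to 900 and 858 (log2 2.12, SE 0.15). Dcn, the small proteoglycan decorin, rose from 88.2 and 99.7 to 408 and 463 (log2 1.75). These 3 genes had no overlap between the lines. The Wnt-induced protein gene Ccn4 fell from 2040 and 1866 to 771 and 714 (log2 -1.34). Fn1, which encodes fibronectin, was at 1953 and 1842 against 2110 and 2079 (log2 0.14, limma adjusted p 0.39), and Sparc (0.40) and Tgfbi (-0.05) did not pass either. A further probe set of Sparc gave -1.04.

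The list of matrix proteases and inhibitors had 7 higher genes among 18 tested members (38.9%, against 5.9% of all genes) and lower for 0, with a list median of 0.60 and 9 further members too dim to test. The tissue inhibitors of metalloproteinases accounted for 3 of the 7. Timp1 rose from 1789 and 2055 to 6561 and 6275 (log2 1.72, SE 0.09), Timp2 from 575 and 547 to 1751 and 1759 (log2 1.56) and Timp3 from 1676 and 1737 to 5391 and 5088 (log2 1.59), while the membrane-anchored inhibitor Reck was at 0.73. In all 3 inhibitors the VEC-positive copies lay above both VEC-null copies.

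Of the 4 proteases called, 2 belong to the ADAM family, which sheds membrane proteins. Adam8 rose from 196 and 185 to 1474 and 1515 (log2 2.68, SE 0.14, limma adjusted p 1.4e-06) and Adam15 from 310 and 425 to 1282 and 1353 (log2 1.73). The other tested ADAM genes, Adam9 (0.52), Adam10 (-0.14), Adam12 (-0.45) and Adam19 (0.04), did not pass. Plat, the tissue plasminogen activator, was at 305 and 298 against 737 and 649 (log2 1.08), and Mmp11, a metalloproteinase, at 250 and 232 against 567 and 550 (log2 1.06). Plat lies on chromosome 8 and Mmp11 on chromosome 10, and with the chromosome medians subtracted they came to 0.85 and 0.69. The membrane metalloproteinase gene Mmp14 (0.32) and the urokinase gene Plau (0.49) did not pass.

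**Figure D3:**
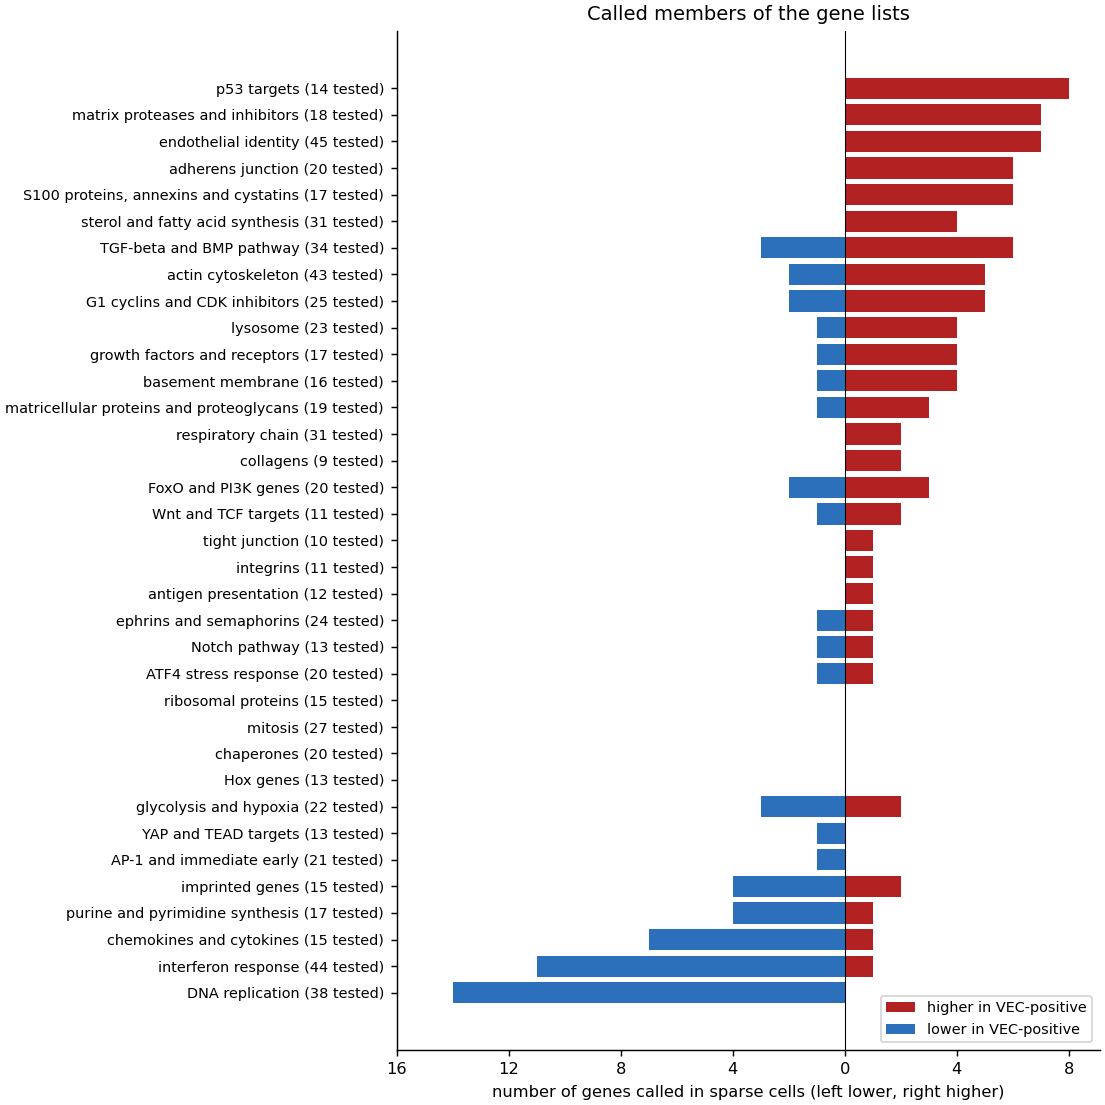
Number of genes called in sparse cells for each gene list with 9 or more tested members, marker lists of other cell types left out. Bars to the right count genes higher and bars to the left genes lower in VEC-positive cells, from 8 higher p53 targets and 7 higher matrix proteases and inhibitors to 14 lower DNA replication genes.

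Adherens junction genes were higher for 6 of 20 tested members (30%, against 5.9% of all genes) and lower for 0, and 18 of the 20 lay above 0, with a median of 0.57. The called genes were not the classical cadherins or most catenins. Cdh13, a cadherin anchored to the membrane by a lipid, rose from 153 and 122 to 1353 and 1229 (log2 2.84, SE 0.14, limma adjusted p 1e-06), and its 4 further probe sets gave 0.67 to 2.79. Jup, which encodes plakoglobin, a catenin of adherens junctions and desmosomes, rose from 266 and 208 to 1202 and 1330 (log2 2.20). In both genes the lines did not overlap. The beta-catenin gene Ctnnb1 (0.10), the alpha-catenin gene Ctnna1 (0.14), the p120-catenin gene Ctnnd1 (0.42) and the N-cadherin gene Cdh2 (0.55) did not pass.

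Receptor tyrosine phosphatases that dephosphorylate junction proteins made up 3 of the 6. Ptprb, the endothelial phosphatase VE-PTP that binds VE-cadherin, rose from 308 and 290 to 1087 and 1151 (log2 1.74), with 2.53 and 2.06 by further probe sets. Ptprk rose from 401 and 394 to 1456 and 1740 (log2 1.88), and Ptprj, the phosphatase DEP-1, from 372 and 440 to 879 and 866 (log2 1.02). Ptprm (0.68) and Ptprs (0.67) did not reach the threshold. Ptprb and Ptprk lie on chromosome 10, the chromosome with the largest median shift (0.37 over 452 genes, 21.5% of them called), and stayed called with that median subtracted. The adhesion molecule gene Nectin1 was at 769 and 699 against 1475 and 1575 (log2 1.01) and fell just below the threshold, at 0.98, with its chromosome median subtracted.

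Of 10 tight junction genes (10% called, against 10.3% of all genes) only Cgnl1, the plaque protein paracingulin, passed, at 2470 and 2509 against 7346 and 6799 (log2 1.49), and its further probe sets gave 1.64 and 1.74. Cldn5, the endothelial claudin, was dim in both lines, at 13.6 and 10.2 against 47.8 and 16, and did not pass (log2 0.38, limma adjusted p 0.30). Of 3 tested connexins (33.3% called) Gja1 alone passed, while Gja4 (0.09) and Gjc1 (-0.28) did not. Pkp1, a desmosomal plakophilin, rose from 134 and 87.2 to 598 and 448 (log2 1.84) and was the 1 gene called of 6 desmosomal genes tested (16.7%).

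Of 4 tested epithelial and mesothelial markers Krt19 and Msln were higher (50% called, against 10.3% of all genes). Cdh1 (0.06) and Cdh3 (0.05) did not pass, and 10 were too dim to test. Msln, the mesothelial surface protein mesothelin, rose from 594 and 600 to 3268 and 3503 (log2 2.41, SE 0.19, limma adjusted p 1.5e-05). The other tested keratins, Krt15 (0.12) and Krt17 (-0.35), did not pass, and 9 of 12 keratins were too dim to test. Over the 14 epithelial and mesothelial markers on the arrays, the summed signal was 1421 to 1624 in VEC-null and 4925 to 5402 in VEC-positive sparse cells, and 9 and 8 of the 14 had a mean signal under 50. Without Krt19 and Msln the sums were 817 to 1027 and 795 to 951, which overlap. The part of such cells in these results was not tested, and in bulk RNA a change in the number of cells of a type cannot be told apart from a change in RNA per cell. Among other filament genes, Nes, the intermediate filament nestin, rose from 2175 and 2136 to 6879 and 7045 (log2 1.67), and the nuclear lamin gene Lmnb1 fell from 1075 and 978 to 192 and 170 (log2 -2.22), where a further probe set gave 0.12.

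S100 proteins, annexins and cystatins are small calcium-binding proteins, membrane-binding proteins and protease inhibitors. They were higher for 6 of 17 tested members (35.3%, against 5.9% of all genes) and lower for 0, with a median of 0.75. Like the other lists, this one was chosen with earlier results of these data known, so its share is a description. S100a4, which binds myosin and is often expressed in motile cells, rose from 1143 and 1149 to 8708 and 10245 (log2 2.99, SE 0.14, limma adjusted p 6.3e-07). S100a13 rose from 507 and 436 to 3900 and 2872 (log2 2.71) and S100a10, the partner of annexin A2, from 3678 and 3225 to 9413 and 9860 (log2 1.47). All 3 S100 genes lie on chromosome 3, whose median change was -0.16. S100a6 (0.75), S100a3 (0.75) and S100a8 (0.30) did not pass.

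Anxa8, an annexin of epithelia and endothelial precursors, was at 40.1 and 46.5 against 1194 and 1222 (log2 3.75, SE 0.15). Stfa3, a stefin that inhibits cathepsins, was at 13.9 and 9.2 against 933 and 640 (log2 3.74, SE 0.36), and since the stefin A genes are near-identical copies its probe set may read several of them. Both genes passed from dim signals in VEC-null cells to bright signals in VEC-positive cells. Anxa7 was called at 1.28, with VEC-null copies that differed (191 and 428) and VEC-positive copies at 758 and 784. Anxa1 (0.60), Anxa2 (0.62), Anxa3 (0.70) and Anxa5 (-0.14) did not pass.

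Actin cytoskeleton genes were called for 7 of 43 tested members, 5 higher and 2 lower (16.3%, against 10.3% of all genes), with a median of 0.09. Besides Gsn, Tmsb4x, the actin-monomer binding thymosin beta 4, rose from 3367 and 3183 to 8473 and 9326 (log2 1.43), Pfn2, a profilin, from 72.0 and 83.7 to 322 and 330 (log2 1.56), and Cnn2, a calponin, from 939 and 999 to 2671 and 2807 (log2 1.45). The light chain gene Myl6 was called at 1.10 and came to 0.73 with the chromosome 10 median subtracted. Acta2, smooth muscle actin, fell from 358 and 385 to 129 and 137 (log2 -1.20), and Lcp1, the leukocyte plastin, from 387 and 307 to 66.0 and 91.7 (log2 -1.62), where a further probe set gave -0.01.

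Interferon response genes were lower for 11 of 44 tested members and higher for 1 (27.3% called, against 10.3% of all genes), and 31 of the 44 lay below 0, with a median of -0.29. These genes are switched on by interferon through factors that bind the interferon-stimulated response element, or, for some, directly by innate sensing of RNA or DNA. Promoter sequences of 5 of the lower genes are shown because they contain the core of that element. They are the 150 bases before the transcription start in the RefSeq promoter table of mouse assembly GRCm38.p6, written 5′ to 3′ in the direction of the gene. Capitals mark the core, GAAA followed by any 2 bases and another GAAA, searched on both strands, and overlapping matches run together.
Isg15: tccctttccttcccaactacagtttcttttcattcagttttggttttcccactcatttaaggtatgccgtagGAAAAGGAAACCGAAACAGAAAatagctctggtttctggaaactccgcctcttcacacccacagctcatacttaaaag
Ifit1: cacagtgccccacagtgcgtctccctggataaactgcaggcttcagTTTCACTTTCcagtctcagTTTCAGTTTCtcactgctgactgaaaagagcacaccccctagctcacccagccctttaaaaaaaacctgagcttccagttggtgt
Rsad2: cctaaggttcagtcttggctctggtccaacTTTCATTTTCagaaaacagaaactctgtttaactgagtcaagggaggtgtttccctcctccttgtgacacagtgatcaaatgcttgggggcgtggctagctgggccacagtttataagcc
Gbp2: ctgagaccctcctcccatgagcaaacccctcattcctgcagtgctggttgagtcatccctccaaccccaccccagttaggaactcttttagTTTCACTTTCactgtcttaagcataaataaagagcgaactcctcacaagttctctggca
Gbp7: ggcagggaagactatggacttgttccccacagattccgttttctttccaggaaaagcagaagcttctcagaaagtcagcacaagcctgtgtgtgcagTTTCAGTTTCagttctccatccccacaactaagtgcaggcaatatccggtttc
They lie at chr4:156200819-156200968 on the minus strand (Isg15), chr19:34640739-34640888 on the plus strand (Ifit1), chr12:26456453-26456602 on the minus strand (Rsad2), and on chromosome 3 at chr3:142620513-142620662 (Gbp2) and chr3:142530186-142530335 (Gbp7), both on the plus strand.

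In the whole table, whose promoters span 250 bases before to 50 after the start, 3.44% of 32851 promoters held the core, and 3.52% of the 7492 tested genes that the table lists did so. It was present for 7 of the 11 lower interferon genes (63.6%), namely Isg15, Ifit1, Rsad2, Ifih1, Gbp2, Gbp3 and Gbp7, and for 7 of 27 (25.9%) of those that were higher or did not pass. A match is a description of the letters and does not show that a factor was bound there, and Irf1, Oasl1, Oasl2 and Cmpk2 had no match in the window.

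The fall was steep for Oasl1, an oligoadenylate synthetase-like protein, from 9437 and 8944 to 382 and 172 (log2 -4.90, SE 0.26, limma adjusted p 1.7e-06). The neighbouring family member Oasl2 fell from 577 and 561 to 38.0 and 47.7 (log2 -2.74). Both lie on chromosome 5, whose median change was -0.34, and they came to -4.56 and -2.40 with it subtracted. Ifit1, which binds viral RNA ends, fell from 939 and 861 to 56.8 and 36.3 (log2 -3.31, SE 0.12). Rsad2, the antiviral protein viperin, fell from 870 and 705 to 18.8 and 92.7 (log2 -3.07), and a further probe set gave -3.47. In these 4 genes the VEC-positive copies were all below the VEC-null copies, although the VEC-positive copies of Oasl1 and Rsad2 lay far apart.

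Of 7 interferon-induced GTPases tested, 3 were lower and 4 did not pass (42.9% called, against 10.3% of all genes). The 3 were guanylate-binding proteins, which act on pathogen membranes. Gbp2 went from 140 and 185 to 36.5 and 6.0 (log2 -1.60), Gbp3 from 571 and 556 to 115 and 90.5 (log2 -2.01) and Gbp7 from 441 and 465 to 66.3 and 43.8 (log2 -2.27), with -0.30 by a further probe set of Gbp7. Igtp (-0.72), Iigp1 (-0.01), Ifi47 (0.25) and Irgm1 (0.49) did not pass. The 3 genes are similar neighbours on chromosome 3, so their probe sets may share transcripts. Isg15, the ubiquitin-like modifier, fell from 326 and 396 to 108 and 22 (log2 -1.94), Cmpk2, a mitochondrial nucleotide kinase, from 183 and 146 to 50.1 and 17.0 (log2 -1.38), and Ifih1, the RNA sensor MDA5, from 132 and 126 to 17.5 and 9.2 (log2 -1.5). These too did not overlap between the lines.

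Of the regulators of the response, Irf1, a transcription factor, fell from 596 and 536 to 146 and 110 (log2 -1.79). Stat2 (0.91), Irf9 (-0.08), Irf7 (-0.44), Irf3 (-0.10), Jak1 (-0.56) and the receptor chains Ifnar1 (0.19) and Ifnar2 (0.19) did not pass. Ifi27 alone was higher, from 706 and 643 to 1539 and 1663 (log2 1.19). Several antiviral genes did not move past the threshold, among them Ifit2 (-0.85), Ifit3 (-0.31), Usp18 (-0.66), Bst2 (0.09) and Eif2ak2 (0.01). Among 12 genes of antigen presentation 8.33% were called, against 10.3% of all genes, with 0 lower. Only Cd1d1, a lipid-presenting molecule, was higher, from 3.5 and 3.0 to 101 and 110 (log2 1.55), while H2-K1 (-0.51), H2-D1 (0.50) and B2m (-0.27) did not pass.

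Chemokines and cytokines were lower for 7 of 15 tested members and higher for 1 (53.3% called, against 10.3% of all genes), with a median of -0.90 and 17 members too dim to test. Ccl5, which attracts T cells and monocytes, fell from 2195 and 1719 to 99.8 and 215 (log2 -3.32, SE 0.26), and Ccl2, the monocyte attractant, from 12576 and 12088 to 5397 and 5135 (log2 -1.22, SE 0.07). Ccl7 was at -0.90. The CC chemokines called were thus a bright gene with a small change and a moderately bright one with a large change. Cxcl10, an interferon-induced T cell attractant, fell from 1271 and 1038 to 90.6 and 98.6 (log2 -3.05), Cxcl5, a neutrophil attractant, from 849 and 974 to 144 and 138 (log2 -2.33), and Cxcl12, the ligand of Cxcr4, from 1882 and 1762 to 464 and 454 (log2 -1.88). Further probe sets of Cxcl12 gave -0.82, -1.42 and -0.16.

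Cxcl2, a further neutrophil attractant, fell from 589 and 757 to 217 and 260 (log2 -1.32). It came to -0.98 with the chromosome 5 median subtracted, whereas Cxcl5, Cxcl10 and Il6 on the same chromosome stayed called. Il6, the cytokine of the acute phase response, fell from 172 and 175 to 21.1 and 23 (log2 -1.63). Cx3cl1, a membrane-bound chemokine of endothelium, was the 1 member higher, from 72.8 and 41.6 to 196 and 164 (log2 1.11), and came to 0.88 less the chromosome 8 median. Cxcl1 (-0.57), Csf1 (-0.30), Csf2 (-0.71) and Cxcl16 (0.78) did not pass.

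DNA replication genes were lower for 14 of 38 tested members (36.8%, against 4.37% of all genes) and higher for 0, with a median of -0.90, and 35 of the 38 lay below 0. Many such genes are transcribed at the start of S phase under E2F factors. Promoters of 2 lower genes that contain an E2F site are shown, 150 bases before the start as above, with the letters TTTCCCGC or TTTGGCGC, searched on both strands, in capitals.
Cdc6: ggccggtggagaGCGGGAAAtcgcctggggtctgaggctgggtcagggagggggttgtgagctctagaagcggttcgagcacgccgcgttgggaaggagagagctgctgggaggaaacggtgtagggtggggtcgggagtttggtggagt
Pola1: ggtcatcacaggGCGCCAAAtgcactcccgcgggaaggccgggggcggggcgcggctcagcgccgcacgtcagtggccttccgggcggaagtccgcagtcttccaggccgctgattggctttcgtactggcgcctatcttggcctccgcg
They lie at chr11:98908001-98908150 on the plus strand (Cdc6) and chrX:93632156-93632305 on the minus strand (Pola1). These letters occurred in 1.56% of all promoters of the table and 3.64% of tested genes. They were found for 4 of 12 lower replication genes listed there (33.3%), Mcm3, Mcm7, Cdc6 and Pola1, and for 6 of 21 (28.6%) of the members that did not pass.

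The members that open origins and unwind DNA held 8 of the 14 calls. Cdc6, which loads the helicase, fell from 1535 and 1625 to 543 and 511 (log2 -1.5, SE 0.10, limma adjusted p 4.8e-06), Cdc45, a helicase subunit, from 1429 and 1387 to 481 and 496 (log2 -1.44), and Orc1, the largest subunit of the origin recognition complex, from 378 and 412 to 139 and 104 (log2 -1.38). Their VEC-positive copies lay below their VEC-null copies throughout. Mcm3, Mcm7, Mcm10 and Mcm4 were called at -1.20, -1.24, -1.13 and -1.0, and Gins1 at -1.16. Mcm2 (-0.88) and Mcm5 (-0.52) did not pass, and with chromosome medians subtracted Mcm7 and Mcm4 came to -0.90 and -0.97.

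Among polymerase and clamp genes, Pola1, the catalytic subunit of the primase complex polymerase, fell from 1303 and 1184 to 367 and 398 (log2 -1.58), and its partner Pola2 from 1113 and 1232 to 440 and 409 (log2 -1.36), where a further probe set gave -0.50. The clamp loader genes Rfc5 and Rfc1 were called at -1.49 and -1.30, with -0.36 by a further probe set of Rfc1, and Rfc4 was just under the threshold of size. Fen1, the nuclease that processes Okazaki fragments, fell from 1498 and 1487 to 569 and 627 (log2 -1.25). The sliding clamp gene Pcna was at 3945 and 3222 against 2490 and 2911 (log2 -0.40, limma adjusted p 0.029), a difference under the threshold of size. Of the genes of nucleotide supply, Dck was called at -1.02, and Rrm1 (-0.87), Rrm2 (-0.66) and Tk1 (-0.26) were not. With an offset of 200 in place of 50, 9 replication genes were lower.

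None of the 27 mitosis genes tested passed in sparse cells, higher or lower, with a median of -0.44 and 23 members below 0. The lowest were Bub1, just under the threshold of size, Cenpa (-0.87) and Racgap1 (-0.81), and the proliferation marker Mki67 was at -0.71. Cdk1, the kinase that drives entry into mitosis, was the highest at 0.94, with 2463 and 2356 against 4812 and 4556, and lies on chromosome 10.

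Targets of the transcription factor p53 were higher for 8 of 14 tested members (57.1%, against 5.9% of all genes) and lower for 0, with a median of 1.26, the highest of the lists with 5 or more tested members. This list, like the others, was chosen with earlier results of these data known. Cdkn1a, which encodes the cell cycle inhibitor p21, rose from 608 and 613 to 3335 and 3382 (log2 2.37, SE 0.09, limma adjusted p 3.7e-07), and a further probe set gave 1.81. Mdm2, the ubiquitin ligase of p53, rose from 1585 and 1349 to 6837 and 6951 (log2 2.20, SE 0.09), and stayed called less the chromosome 10 median. Trp53inp1, a stress protein, rose from 392 and 405 to 2113 and 2137 (log2 2.28), with 1.5 and 1.16 by further probe sets. In all 3 genes the copies of a line were close and the lines far apart.

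Btg2, an antiproliferative gene, rose from 552 and 407 to 2179 and 2092 (log2 2.06), Ccng1, cyclin G1, from 524 and 545 to 1844 and 2316 (log2 1.86), and Zmat3, a zinc finger gene, from 962 and 977 to 2628 and 2561 (log2 1.37). Phlda3, an inhibitor of Akt, rose from 1914 and 1937 to 4586 and 4102 (log2 1.15), and Pmaip1, the BH3-only protein Noxa, from 66.1 and 83.5 to 253 and 311 (log2 1.41). The copies of these 5 genes did not overlap between the lines, which is not a result beyond their calls. Aen (0.89), Ei24 (0.82), Tap1 (0.81), Plk2 (0.04), Sesn1 (-0.06) and Plk3 (-0.23) did not pass. Fas, the death receptor, and Perp, a desmosomal and apoptosis-associated protein, were too dim to be tested, at 8.7 and 23.1 against 151 and 170 for Fas and at 6.6 and 15.1 against 78.7 and 79.7 for Perp.

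Genes of G1 control were higher for 5 and lower for 2 of 25 tested (28% called, against 10.3% of all genes), and 2 of the higher ones, Cdkn1a and Btg2, are also p53 targets. The D cyclins, which pair with Cdk4 and Cdk6, divided. Ccnd2 had one of the largest rises of all genes, Ccnd1 rose from 3909 and 3761 to 9169 and 8901 (log2 1.23, SE 0.08), and Ccnd3 (0.33) did not pass. Gas6, the ligand of the Axl receptor family, rose from 16.5 and 20.8 to 227 and 173 (log2 1.85). The inhibitor gene Cdkn1c, p57, fell from 160 and 175 to 43.3 and 34.6 (log2 -1.29), and the pocket protein gene Rbl1, p107, from 856 and 804 to 379 and 390 (log2 -1.02, and -0.95 less its chromosome median). E2f1 (-0.38), Rb1 (0.63), Cdk4 (0.50) and Myc (-0.95) did not pass.

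Of 45 tested genes of endothelial identity, 7 (15.6%, against 5.9% of all genes) were higher and 0 lower, with a median of 0.20, and their summed signal was 54211 to 54911 in VEC-null and 78603 to 81649 in VEC-positive sparse cells. Emcn, the sialomucin endomucin, rose from 3651 and 3419 to 8041 and 7630 (log2 1.14) and Cd93, a surface lectin, from 2873 and 3145 to 7332 and 7031 (log2 1.24). Mmrn2, a matrix ligand of Cd93, rose from 273 and 239 to 921 and 1278 (log2 1.89). The receptors Tie1 and Flt4, the latter a receptor of VEGF-C, rose from 878 and 812 to 2497 and 2040 (log2 1.37, with 0.44 by a further probe set) and from 670 and 621 to 1397 and 1393 (log2 1.06). All 5 surface and matrix genes had VEC-positive copies above the VEC-null copies.

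The flow-responsive transcription factors Klf2 and Klf4 rose from 47.3 and 28.6 to 241 and 213 (log2 1.66) and from 690 and 713 to 1899 and 2065 (log2 1.43). Kdr, the main VEGF receptor, went the other way, at 609 and 582 against 257 and 322, with a log2 change of -0.93 that did not reach the threshold of size (limma adjusted p 0.00016). The receptor genes Tek (-0.31) and Flt1 (-0.12) and the factor genes Sox18 (-0.14), Ets1 (-0.69) and Fli1 (-0.26) did not pass. Vwf, which encodes von Willebrand factor, was dim in both lines, at 14.4 and 14.6 against 48.2 and 36.0.

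In the TGF-beta and BMP pathway, 6 of 34 tested members were higher and 3 lower. Called members made up 26.5%, against 10.3% of all genes. Of 13 ligands and binders, 4 were higher, 0 lower and 9 did not pass. Inhba, the activin A subunit, rose from 248 and 186 to 1076 and 1184 (log2 2.15), and its antagonist Fst, follistatin, from 942 and 918 to 5769 and 6018 (log2 2.60, SE 0.12), although a further Fst probe set gave 0.33. The BMP antagonist Grem1 rose from 73.1 and 57.7 to 464 and 287 (log2 1.85) and Fstl1, a follistatin-like glycoprotein, from 1310 and 1477 to 3474 and 3646 (log2 1.32). None of the 4 overlapped between the lines. Of receptors and Smads, Bmpr1a was at 186 and 265 against 1313 and 679 (log2 1.87), and Smad6, an inhibitor of BMP signalling, at 98.6 and 106 against 443 and 377 (log2 1.59).

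Smad4, the Smad shared by both branches, fell from 2721 and 2555 to 1371 and 1080 (log2 -1.08) and came to -0.91 less the chromosome 18 median. Of the targets, Id2 fell from 1119 and 1139 to 466 and 566 (log2 -1.06), while Id1 (0.71), Id3 (0.88) and Smad7 (0.31) did not pass. Tgfb2 was at 0.96 and Tgfbr2 at -0.49.

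Growth factor and receptor genes were higher for 4 and lower for 1 of 17 tested (29.4% called, against 10.3% of all genes), with 16 too dim to test. Vegfd, a ligand of Flt4, rose from 64.7 and 73.3 to 291 and 276 (log2 1.49), and Pdgfb, which recruits pericytes, fell from 474 and 544 to 116 and 172 (log2 -1.54, with -1.53 by a further probe set). The receptors Fgfr1, Igf1r and Igf2r were called at 1.32, 1.47 and 1.11, and Igf1r had 1.37 and 1.39 by further probe sets. Vegfc (-0.35), Pdgfa (-0.36) and Angpt2 (0.64) did not pass. With an offset of 200, 1 member was higher. Among 13 Notch pathway genes (15.4% called), Notch4, an endothelial receptor, was higher, from 141 and 161 to 449 and 452 (log2 1.32), and the glycosyltransferase gene Mfng lower, from 319 and 389 to 142 and 126 (log2 -1.13). Hes1 (-0.40), Hey1 (-0.03) and Dll4 (0.14) did not pass.

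Of 24 ephrin and semaphorin genes (8.33% called, against 10.3% of all genes), Efna5 was higher (log2 1.01) and Sema3e lower (log2 -1.59, from 1200 and 1204 to 409 and 326). Of 11 Wnt and TCF genes (27.3% called), Ccnd1 and Sfrp2 were higher and Apcdd1 lower. Of 21 AP-1 and immediate early genes (4.76% called), 1 passed: Spry1, an inhibitor of receptor tyrosine kinase signalling, fell from 247 and 285 to 48.8 and 29.5 (log2 -1.83, SE 0.46). Of 13 YAP and TEAD targets (7.69% called), Wtip alone passed, while Ccn1 (0.37), Ccn2 (0.87) and Ankrd1 (-0.51) did not. FoxO and PI3K genes held 3 higher and 2 lower of 20 (25% called), with Irs1, an insulin receptor substrate, at 1.38 and the BH3-only gene Bcl2l11 at -1.16. Further probe sets of Bcl2l11 gave -0.54 and -0.81.

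Imprinted genes, expressed from 1 parental allele, were higher for 2 and lower for 4 of 15 tested (40% called, against 10.3% of all genes). Mest fell from 426 and 520 to 3.4 and 17.9 (log2 -3.11, SE 0.19), Peg10 from 420 and 451 to 72.0 and 44.0 (log2 -2.18), Impact from 585 and 482 to 205 and 198 (log2 -1.21), and Cdkn1c fell as given above. Ndn, the growth suppressor necdin, rose from 34.9 and 28.0 to 293 and 323 (log2 2.14) and Igf2r at 1.11. Igf2 (0.27), Dlk1 (-0.46), Peg3 (0.73) and Meg3 (0.45) did not pass. The 4 lower genes became 2 with an offset of 200 and 1 with the level filter raised to the 75th percentile.

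In metabolism, purine and pyrimidine genes were lower for 4 of 17 tested and higher for 1, Ak1 (29.4% called, against 10.3% of all genes). Atic and Gmps, late enzymes of purine synthesis, fell from 4810 and 5076 to 2147 and 1848 (log2 -1.29, with -0.67 by a further probe set) and from 5222 and 5463 to 2207 and 2118 (log2 -1.29). Shmt1, which feeds one-carbon units, fell from 748 and 683 to 156 and 144 (log2 -1.93, with -0.42 by a further probe set), and the mitochondrial adenylate kinase gene Ak4 from 189 and 217 to 17.8 and 30.0 (log2 -1.78). Sterol synthesis held 4 higher genes of 19 tested (21.1%), Mvd (log2 1.61), Fdft1 (1.39), Nsdhl (1.32) and Msmo1 (1.24), and fatty acid synthesis 0 of 12. Over both, 12.9% of 31 genes were called, near the 10.3% of all genes. The early sterol enzymes Hmgcs1 (0.47) and Sqle (0.42) did not pass.

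Among 23 lysosomal genes, 4 were higher and 1 lower (21.7% called, against 10.3% of all genes). Ctsd, cathepsin D, rose from 4277 and 4268 to 11249 and 12147 (log2 1.44), Npc2, a cholesterol carrier, from 1381 and 1476 to 4042 and 3779 (log2 1.42), and Ctsf and Ctsh were called at 1.81 and 1.90. Ctsz, cathepsin Z, fell from 458 and 350 to 23.8 and 14.7 (log2 -2.71). In glycolysis and hypoxia, 2 of 22 were higher and 3 lower (22.7% called): Hk1 (1.02) and Pfkl (1.32) lie on chromosome 10 and came to 0.64 and 0.95 less its median, and Slc16a1, a lactate transporter, fell from 223 and 231 to 44.1 and 50.8 (log2 -1.51), with Egln3 at -1.07 and Ndrg1 at -1.02 (-0.96 less its chromosome median). Ldha (0.02), Pgk1 (0.11) and Slc2a1 (-0.18) did not pass. Of 31 respiratory chain genes 2 were higher (6.45%), Ndufb2 (1.10) and Atp5o (1.02). Ribosomal protein genes (15 tested), Hox genes (13) and chaperones (20) had 0 calls in limma.

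The lists of markers of other cell types had few tested members. Called were 33.3% of 9 fibroblast and mesenchymal markers and 50% of 6 neuronal markers, against 10.3% of all genes. For blood cell markers it was 25% of 4, with Kit lower (log2 -1.05). For smooth muscle and pericyte markers it was 14.3% of 7, with Acta2 lower (log2 -1.20). Of 2 tested embryonic stem cell markers 0 were called. The summed signal of 16 fibroblast and mesenchymal markers was 7638 to 7677 in VEC-null and 14454 to 16207 in VEC-positive sparse cells, with S100a4 and Dcn higher and Snai2, a transcription factor of mesenchymal transition, lower, from 2363 and 2346 to 907 and 886 (log2 -1.35). S100a4 made up the rise: without it the sums were 6495 to 6528 and 5746 to 5962. The members Thy1, Lum, Fap, Twist1 and Prrx1 were too dim to test. Smooth muscle and pericyte markers summed to 2912 to 3072 and 2609 to 2760, and blood cell markers to 1141 to 1218 and 1297 to 1429. Embryonic stem cell markers summed to 1521 to 1616 in VEC-null and 1016 to 1148 in VEC-positive cells, with Pou5f1, Nanog and Sox2 too dim to test. Neuronal markers summed to 6173 to 8175 and 8768 to 9879, with Nrn1 higher and Sox11 and Ncam1 (log2 -2.10) lower. A further probe set of Ncam1 gave -0.28. The part of such cells in the results was not tested.

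The same contrast in confluent cells, which shares no array with the sparse one, called 424 genes higher (4.6%) and 319 lower (3.46%), 8.06% of genes together. Across the 9224 genes, which are not independent replicates, the changes at both densities had a Pearson correlation of 0.38 and a Spearman rank correlation of 0.268. In both, 165 genes were higher (30.3% of those higher in sparse and 38.9% of those higher in confluent cells) and 80 were lower (19.9% and 25.1%). Col5a2 (5.39), Ak1 (4.59), Gatm (4.46), Nrn1 (3.46), Dcxr (3.30) and Ddit4l (2.93) were among those also higher in confluent cells, and Pmepa1 (-6.03), Sox11 (-5.21), Gja1 (-5.07), Mest (-4.41), Oasl1 (-3.41) and Wtip (-2.32) among those also lower. Of the 947 genes called in sparse cells, 707 had the same sign in confluent cells. The share of all genes tested with the same sign is not given here, so this count is no result about the called genes. A test of the difference between the effects (the sparse log2 change minus the confluent one) was passed by 437 (46.1%) of the 947. Of all genes tested 12.7% passed that test, 6.21% with a positive and 6.5% with a negative difference. The 947 genes were chosen by their sparse change, which is part of the difference. A higher share among them thus follows in part from that choice. Over all probe sets 12.2% passed the test.

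The gene groups divided by density. Of the 8 higher p53 targets, 7 were also called higher in confluent cells, all but Pmaip1, and the confluent list median was 1.71. Among the 14 tested only Sesn1 passed the test of the difference, with -1.98. Cdkn1a (-0.91), Zmat3 (-0.90), Phlda3 (-0.77), Ccng1 (-0.76) and Mdm2 (-0.60) missed it on size alone, with limma adjusted p values of 0.013 or less. Their rises were thus smaller when sparse. Trp53inp1 was at -0.10, and Btg2 (0.56) and Pmaip1 (0.82) were positive, with limma adjusted p values of 0.64, 0.22 and 0.25. The replication genes differed: 20 of 38 passed with a negative difference and 0 with a positive one, since their confluent median was 0.23, with 2 higher and 0 lower. Cdc6 was at 0.05 in confluent cells and Pola1 at 0.23. Of the mitosis genes, 16 of 27 passed with a negative difference, with a confluent median of 0.67. Of the 18 matrix proteases and inhibitors, 10 passed with a positive difference and 0 with a negative one, and Timp1 (-0.21) and Timp3 (-0.02) did not pass in confluent cells. Sterol and fatty acid synthesis held 14 positive differences of 31 and a confluent median of -0.58.

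**Figure D4:**
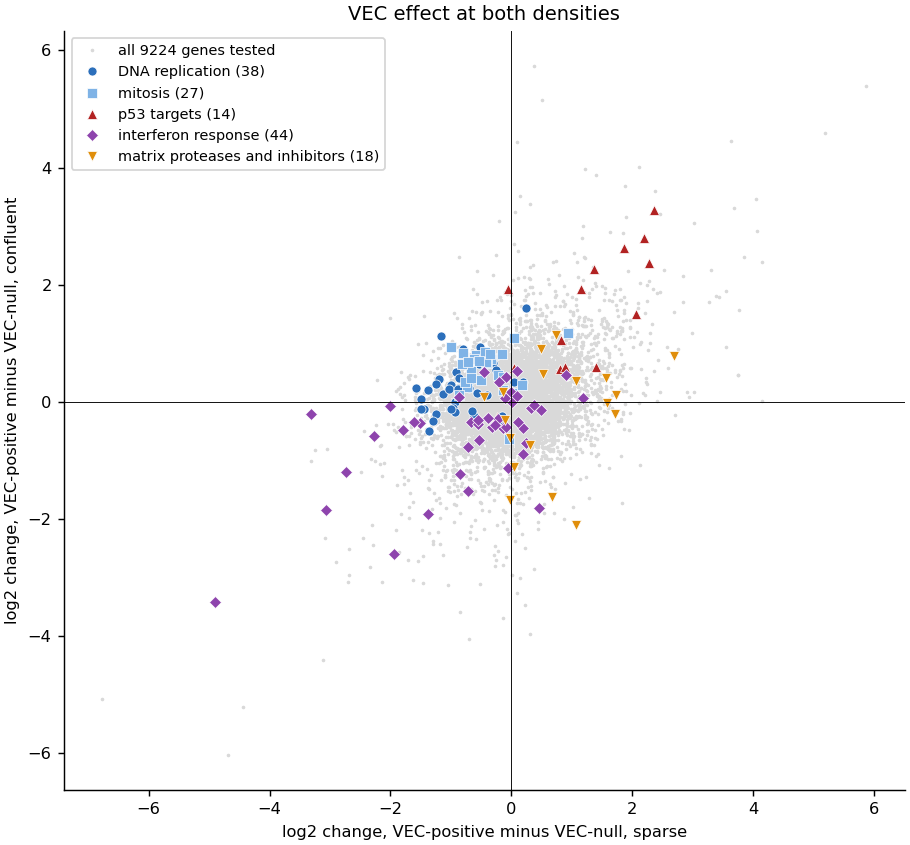
Log2 change between VEC-positive and VEC-null cells when sparse (horizontal axis) and when confluent (vertical axis), grey for all 9224 genes tested and coloured for members of 5 lists. The p53 targets lie mostly at the upper right, the replication and mitosis genes mostly left of 0 and near or above 0 on the confluent axis, and the matrix proteases and inhibitors mostly right of 0, on both sides of 0 on the confluent axis.

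Several of the leading sparse changes were absent or smaller in confluent cells. Krt19 was at 5.3 and 4.3 against 4.2 and 7.0 there, and its difference between the effects was 4.12 (SE 0.26, limma adjusted p 1.6e-05). Anxa8 (difference 3.30), Stfa3 (3.29) and Msln (2.39) had the same form, bright on the sparse VEC-positive copies alone or, for Msln, brightest there. Ifit1 was at 2173 and 2110 against 1906 and 1781 in confluent cells, a change of -0.21, and its difference was -3.09. Of the interferon genes, 9 passed with a negative and 4 with a positive difference, and Isg15 and Cmpk2, at -2.60 and -1.91 in confluent cells, did not pass the test of the difference.

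The largest differences between the densities were led by genes that changed in confluent cells and not in sparse ones. Krt19 (4.12), given above, was an exception and ranked below Btnl9 alone among the positive differences. Cldn5 (-5.36), Vwf (-4.65), the laminin chain Lamb3 (-4.35) and the proteoglycan Bgn (-3.38) were dim or level in both sparse lines and higher in confluent VEC-positive cells. Btnl9 (4.27), Adamtsl1 (3.70) and Postn (3.54) were dim in both sparse lines, as for Postn at 14.4 and 7.5 against 6.3 and 4.1, and lower in confluent VEC-positive cells. Upp1 and Zfp428 belong to the genes with opposite calls. In sparse VEC-positive cells Cldn5 and Vwf thus stayed below a signal of 50, where confluent VEC-positive cells reached 5222 and 5008 for Cldn5 and 2594 and 2439 for Vwf.

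**Figure D5:**
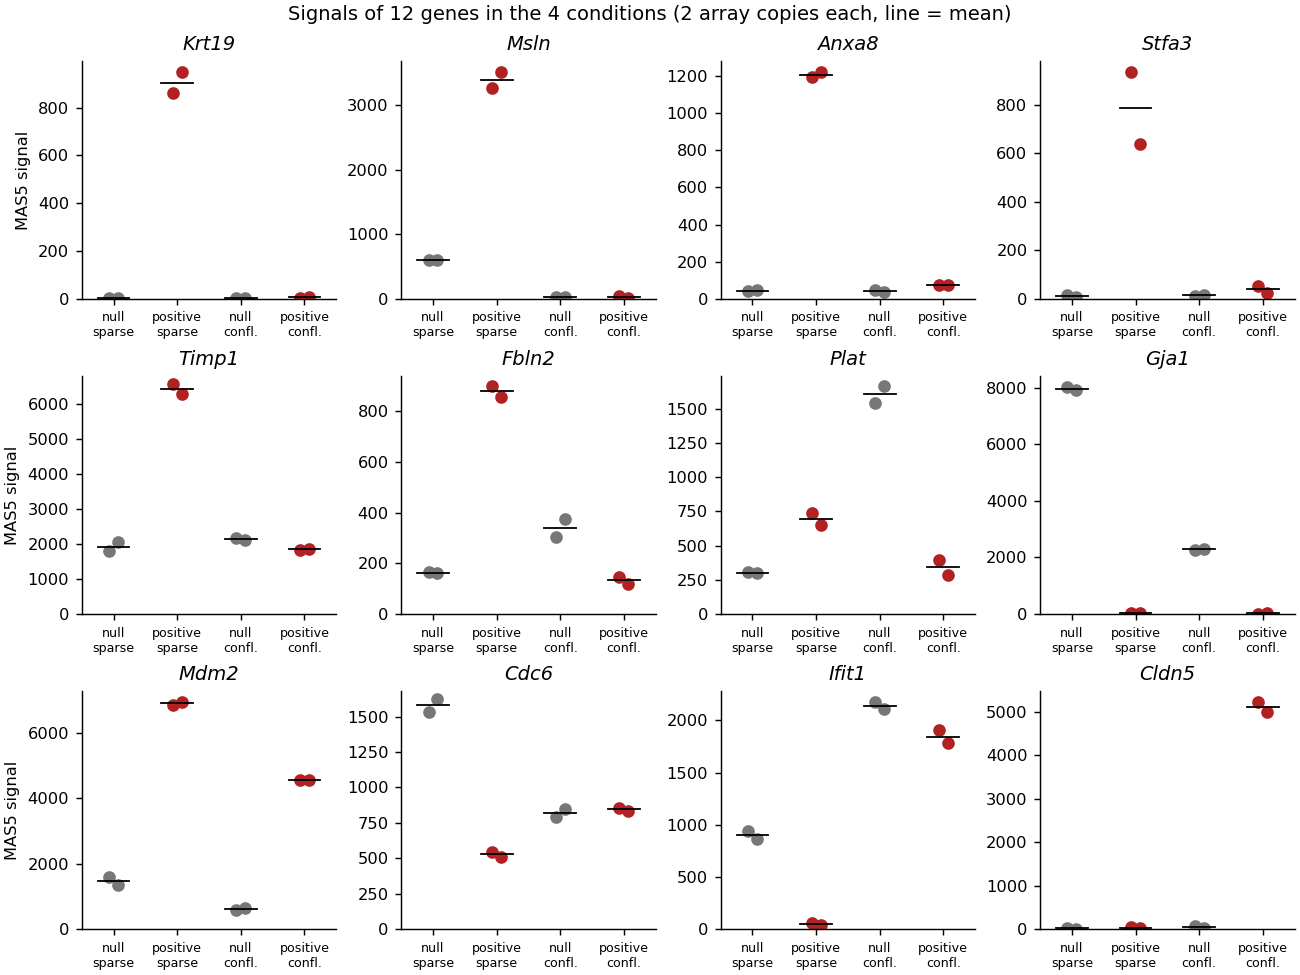
MAS5 signals of 12 genes in the 4 conditions, 2 array copies each as dots with a line at their mean, grey for VEC-null and red for VEC-positive cells. Krt19, Msln, Anxa8 and Stfa3 are highest in sparse VEC-positive cells, Gja1 is near 0 in VEC-positive cells at both densities, Mdm2 is higher in VEC-positive cells at both, and Cldn5 is bright only in confluent VEC-positive cells.

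Opposite calls at the 2 densities were made for 13 genes. Such calls meet the size threshold of the test of the difference by definition. That all 13 passed it is therefore no further result. Higher when sparse and lower when confluent were 8: Fbln2 (log2 2.12 and -1.08), the uridine phosphorylase gene Upp1 (1.84 and -1.73), the respiratory chain genes Uqcrh (1.62 and -1.12) and Atp5md (1.46 and -1.07), the tetraspanin Cd53 (1.29 and -1.63), Msmo1 (1.24 and -1.28), Plat (1.08 and -2.09) and Hk1 (1.02 and -1.80). For Upp1 the mean over its probe sets in sparse cells was 0.67. Lower when sparse and higher when confluent were 5: Gins1 (-1.16 and 1.12), Apmap (-1.20 and 1.14), the chromatin protein gene Hmgb2 (-1.42 and 1.01), the elongator subunit Elp6 (-1.45 and 1.46) and the zinc finger gene Zfp428 (-2.01 and 1.43). The tissue plasminogen activator Plat, for example, was at 305 and 298 against 737 and 649 in sparse cells and at 1607 against 341 on average in confluent cells.

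The genes of some chromosomes had medians away from 0 between the lines. The median change was 0.37 on chromosome 10, 0.24 on chromosome 14 and 0.23 on chromosome 8, and -0.34 on chromosome 5. In confluent cells the medians of these chromosomes were 0.45, 0.23, 0.29 and -0.31, so the shifts were present at both densities. In sparse cells, 87 of 452 genes were higher on chromosome 10 and 67 of 591 were lower on chromosome 5. Calls in both directions made up 21.5% and 12.9% of the genes of these chromosomes, against 10.3% of all genes. With the median of each chromosome subtracted, 170 of the 947 genes were no longer called and 74 others were called. Of the genes in the lists, 18 lost their call, among them Col4a1, Plat, Mmp11, Cxcl2, Mcm7, Dck, Rfc1, Hk1 and Kit. The part of these chromosome shifts in single genes was not tested.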

How the data were processed

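The deposited intensities are MAS5 signals per probe set, per the submitters' processing notes, and the authors scaled each array to a target of 500, per the labels. The series text also names a median normalisation across samples, which was not seen in the values. No version of MAS5 is named in the sources used here. There were 0 columns of another series. The platform annotation gave 1 gene symbol to 21414 of the 24833 probe sets that are not controls, several to 574 and none to 2845, and 21382 matched the RefSeq table of GRCm38.p6. Signals were analysed as log2(signal + 50). Probe sets were kept where at least 1 group mean lay above the median of the chip (a signal of 160 on chip A, 231 on chip B), which left 6997 and 7304, 14301 in all. Each chip was fitted separately, all 4 conditions together, in limma 3.58.1 under R 4.3.3 (lmFit, eBayes with a mean trend, 4 residual degrees of freedom), and p values were adjusted by Benjamini-Hochberg over both chips. On simulated data of 13280 probe sets for the sparse comparison, 99.2% of 119 changes of log2 1.5 were called, with 1 false call. The simulation held only noise between copies and changes of log2 1.5, 2 or 3 in probe sets above the median level. It therefore checks the fit and cannot show how changes between log2 1 and 1.5, or differences between cultures or clones, would be called. Where a gene had several kept probe sets, those of chip A came before those of chip B and the brightest represented the gene. Named genes are the 12 largest rises and 12 largest falls that passed without overlap of copies, the 5 largest differences between densities each way, Col5a2, Krt19, Gja1, Cdh5 and the members of 45 gene lists. These members and lists were chosen with earlier results of these data known. Precision is limited by 2 copies a group. Alternatives were an offset of 16 or 200, no or a stricter level filter, quantile normalisation, no mean trend, the sparse arrays alone, chromosome medians subtracted, fold alone, a replicate block and leaving out each copy.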

Additional observations from a re-analysis of the deposited data

Results flagged for a closer look

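The VEC effect differed between sparse and confluent cells, by the limma test of the difference itself, for 1745 of 14301 probe sets (12.2%). Among the genes with the largest sparse changes, the difference (sparse minus confluent log2 change) passed for Krt19 (4.12), Anxa8 (3.30), Stfa3 (3.29), Ccnd2 (2.21), Apbb1ip (1.76) and Gsn (1.38), which rose more when sparse. It passed for Ifit1 (-3.09), Slc6a15 (-2.43), Ccl5 (-2.31), Cxcl10 (-2.25), Gja1 (-1.70), Oasl1 (-1.49) and Rsad2 (-1.23), which fell more when sparse, and for Pmepa1 (1.35) and Mest (1.29), which fell less. Gja1, Pmepa1 and Mest were dim in VEC-positive cells at both densities, with means of 23.7, 50.05 and 10.65 sparse and 21, 22.8 and 20.9 confluent. Their differences therefore mostly reflect the VEC-null means, 7955, 2529 and 473 sparse and 2289, 4731 and 1447 confluent. Slc6a15 and Cxcl10 were also brighter in sparse than in confluent VEC-null cells, with means of 1206 and 1154 against 108.8 and 291.6. The VEC-positive means of Slc6a15 and Cxcl10 were 81.65 and 94.6 sparse and 41 and 145.75 confluent. The other Pmepa1 probe set gave 0.17 in sparse cells. The largest positive differences of all were those of Btnl9 (4.27), Krt19 (4.12), Adamtsl1 (3.70), Upp1 (3.57) and Postn (3.54). The largest negative ones were those of Cldn5 (-5.36), Vwf (-4.65), Lamb3 (-4.35), Zfp428 (-3.45) and Bgn (-3.38). Groups of 2 copies are too small for a test of outlying samples.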

How the results depend on the processing

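The totals over both chips were 777 probe sets higher, 611 lower and 1745 with a different effect at the 2 densities. With an offset of 200 they were 418, 271 and 1018, and with the level filter raised to the 75th percentile 401 were lower. Leaving out each array copy in turn gave 772 to 793 higher, 593 to 733 lower and 1630 to 1800 different, and between 1173 and 1201 of the 1388 sparse calls were kept without a sparse copy. The copies share only a number, with correlations of their deviations between -0.09 and 0.08, and the replicate block gave 777, 612 and 1746. The other totals stayed within 1.5 times. Postn, Cdh5 and Lamb3, none of them called in sparse cells, changed sign: Postn and Cdh5 to 0.02 and -0.10 with chromosome medians subtracted, and Lamb3, which lay between -0.15 and 0.34 when a VEC-positive sparse copy was left out. The cause was not tested. The mean over probe sets was -5.74 for Gja1, -3.12 for Sox11, -2.26 for Pmepa1 and 0.67 for Upp1. Of the counts of list members, 250 stayed within 1.5 times and 5 did not: basement membrane higher to 2 with chromosome medians subtracted, replication lower to 9, growth factors higher to 1 and imprinted lower to 2 with an offset of 200, and imprinted lower to 1 with the stricter filter. The tables hold no detection calls, so changes from or to signals under 50 have no stated limit of detection.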

Other observations

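Some sparse changes outside the lists were chosen after their values were seen. Fat1, an atypical cadherin, rose from 1562 and 1656 to 18254 and 20438 (log2 3.55, SE 0.08, limma adjusted p 2.4e-08), and Wwc1, the Hippo pathway scaffold Kibra, from 140 and 152 to 2248 and 2251 (log2 3.56), with 3.22 by a further probe set. Lrp1, an endocytic receptor on chromosome 10, rose from 237 and 254 to 2173 and 2238 (log2 2.93). None of these 3 genes overlapped between the lines. Enzymes of detoxification included Ephx1, epoxide hydrolase, at 562 and 644 against 4837 and 5664 (log2 3.02), Gpx8, a peroxidase of the endoplasmic reticulum, at 781 and 719 against 6436 and 6431 (log2 3.02), and Gstm2, a glutathione transferase, at 51.0 and 86.8 against 1091 and 1133 (log2 3.31, with -0.26 by a further probe set).

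Lower were Vcam1, the endothelial receptor for leukocyte integrins, from 1923 and 1960 to 309 and 431 (log2 -2.26, SE 0.15, limma adjusted p 6.3e-06, with -0.12 and -0.45 by further probe sets), the metallothionein Mt2 from 2249 and 2011 to 398 and 474 (log2 -2.17), the cytochrome Cyp1b1 from 1042 and 897 to 164 and 154 (log2 -2.28) and the copper protein ceruloplasmin, Cp, from 672 and 622 to 92.8 and 90.8 (log2 -2.30). In these genes the VEC-positive copies lay below the VEC-null copies.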
